A study of Mus musculus with 9 samples.

Results

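Fc receptors for immunoglobulin were followed by 8 genes, found in the deposited table by gene symbol: Fcgr1, Fcgr2b, Fcgr3, Fcgr4, Fcer1g, Fcgrt, Fcmr and Fcrla. They were 8 of the 56980 genes in the table, and all 8 passed the filter on low counts. The study made bulk RNA libraries of 4 young mice (3 months old) and 5 aged mice (20 months old), all wild type on the C57BL/6 background, and the design text gave the mice as female. No group had received a treatment, each library was labelled a biological replicate, and no mutant or transgenic allele was named. The tissue was labelled bone marrow, while the protocol described RNA from homogenised trabecular bone, so that marrow and bone cells could both be present. The age groups were set side by side to find genes that differed with age in the context of sensory nerves in bone.

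Fc receptors bind the constant part of antibodies and link them to the cells that carry the receptors. Fcgr1, Fcgr3 and Fcgr4 encode activating receptors for IgG, which signal through the common gamma chain encoded by Fcer1g, whose cytoplasmic activation motif (ITAM) is phosphorylated by Src family kinases and then recruits the kinase Syk. Fcgr2b encodes the inhibitory IgG receptor, whose own inhibitory motif (ITIM) recruits the phosphatase SHIP-1. Fcgrt encodes the heavy chain of the neonatal receptor, which pairs with beta-2 microglobulin and protects IgG from breakdown, Fcmr encodes the receptor for IgM, and Fcrla encodes an intracellular Fc receptor-like protein of B cells. In marrow, monocytes, macrophages and neutrophils carry the activating receptors, and B cells carry Fcgr2b as their IgG receptor.

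The opposed signalling motifs of the family are short and are shown here because the activating receptors and the inhibitory receptor differ in them. The Fcer1g stretch starts at coding base 193 of the GENCODE M21 transcript and spans the codons of the ITAM, with its tyrosine codons, 65 and 76 of 86, in capitals. The Fcgr2b stretch starts at coding base 949 and holds the ITIM, with tyrosine codon 319 of 340 in capitals.
Fcer1g ITAM codons: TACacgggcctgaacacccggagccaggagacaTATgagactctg
Fcgr2b ITIM codons: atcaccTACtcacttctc
The inhibitory receptor and the activating receptor Fcgr3 are close to identical in the outer part of the molecule, which bears on how far their counts can be separated. Over 509 aligned coding bases of Fcgr2b and Fcgr3, 491 (96.5%) were identical, and the longest shared run had 129 bases. The 120 bases below are the same in both genes, from coding base 278 of Fcgr2b and from coding base 263 of Fcgr3.
Fcgr2b and Fcgr3 shared coding stretch: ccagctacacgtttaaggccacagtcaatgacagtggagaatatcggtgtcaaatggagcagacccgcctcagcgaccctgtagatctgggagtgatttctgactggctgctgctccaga
Of all 50-base windows, 166 of 1529 (10.9%) in Fcgr2b and 166 of 1298 (12.8%) in Fcgr3 occurred in the other transcript, and the other 5 pairs among the IgG receptors shared 0 such windows at 59.3 to 65.1% identity. Counts of Fcgr2b and Fcgr3 are therefore uncertain where reads fell in the shared stretches.

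The promoters of the pair of members with the largest fold changes, Fcgr1 and Fcgr4, were searched for sites named in textbook accounts of myeloid and interferon-induced transcription. The windows run from 250 bases before the annotated start to the base before it and come from RefSeq on GRCm38.p6: chr3:96293970-96294219 on the minus strand for Fcgr1 and chr1:171018676-171018925 on the plus strand for Fcgr4. Capitals mark the interferon-gamma activated site (GAS, TTCNNNGAA, which reads the same on both strands) and the PU.1 core (GAGGAA, or TTCCTC on the other strand), and the matches do not overlap.
Fcgr1 promoter: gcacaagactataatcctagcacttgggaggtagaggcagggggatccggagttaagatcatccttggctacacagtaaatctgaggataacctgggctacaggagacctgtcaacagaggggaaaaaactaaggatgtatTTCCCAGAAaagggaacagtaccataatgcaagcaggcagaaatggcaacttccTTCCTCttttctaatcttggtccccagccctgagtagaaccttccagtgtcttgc
Fcgr4 promoter: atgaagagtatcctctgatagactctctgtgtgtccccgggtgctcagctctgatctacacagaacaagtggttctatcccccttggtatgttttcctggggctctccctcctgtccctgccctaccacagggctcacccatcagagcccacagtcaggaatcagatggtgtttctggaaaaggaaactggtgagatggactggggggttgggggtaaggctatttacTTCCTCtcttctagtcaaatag
The GAS pattern began 109 bases before the Fcgr1 start and lay in no other of the 8 promoters, against 2306 of 32851 promoters (7.02%) of the same length. The PU.1 core lay in the promoters of Fcgr1, Fcgr3, Fcgr4, Fcmr and Fcrla, against 7639 (23.2%) of all promoters, and both patterns together were in 531 (1.62%) and, among the members, in Fcgr1. A match of letters is a description and shows no binding. In GENCODE M21 on GRCm38, 6 of the 8 genes lie on chromosome 1, Fcgr1 on chromosome 3 and Fcgrt on chromosome 7. Along chromosome 1 the members stand in the order Fcmr, Fcrla, Fcgr2b, Fcgr4, Fcgr3 and Fcer1g.

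The libraries held 19804883 to 23548594 estimated counts each. In 3 libraries, young 4, aged 3 and aged 4, ribosomal protein genes took 6.13 to 7.30% of counts, against 3.17 to 3.44% in the other 6, and these 3 are given apart below as the set of 3. Against the stated female sex, 5 libraries, all 4 young ones and aged 5, held 3098 to 4925 counts of 4 Y-linked genes and 1 to 9 counts of Xist. Aged 1 to 4 held 39 to 44 Y-linked counts and 7909 to 21724 Xist counts, so that age and these transcripts cannot be told apart except through aged 5. Hemoglobin transcripts took 6.98, 9.15, 7.65 and 21.8% of counts in young 1 to 4. In aged 1 to 5 they took 0.697, 2.23, 16.1, 3.98 and 3.75%. The erythroid and neutrophil markers of marrow were present in every library. In bulk RNA, fewer cells of a type and less RNA per cell cannot be told apart. Levels are counts scaled to library size with TMM factors (CPM) unless the deposited TPM are named. TPM take gene length into account and carry no TMM factors, and libraries can rank differently in TPM and in CPM for the same gene. Nor did TPM follow counts alike for each gene. From young 1 to young 4, Fcgr1 went from 256 counts and 5.47 TPM to 206 counts and 4.77 TPM. Fcgr2b went from 2182 counts and 71.78 TPM to 1183 counts and 29.52 TPM. The part of lengths and of scaling in this was not tested. Folds are log2 values, aged over young, from edgeR's quasi-likelihood fit.

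Per length, the gamma chain was the most abundant of the 8 transcripts in both age groups. In young marrow the mean TPM was 480 ± 60.7 for Fcer1g (SD, n = 4), 134 ± 39.5 for Fcgr3, 56.3 ± 18.6 for Fcgr2b, 37.5 ± 3.28 for Fcgrt, 31.6 ± 11.6 for Fcrla, 25.3 ± 4.85 for Fcgr4, 14.2 ± 3.05 for Fcmr and 5.38 ± 0.658 for Fcgr1. Neighbours from Fcgr2b to Fcgr4 in that order had SDs that met or ranges that overlapped, whereas Fcer1g lay above Fcgr3 in every library. In aged marrow Fcgr4 stood second at a mean of 371 ± 528 TPM (SD, n = 5), behind Fcer1g at 914 ± 457 and ahead of Fcgr3 at 161 ± 72.1, though its SD exceeded its mean. That place rested on aged 1 and aged 2: the aged median was 81.8 TPM for Fcgr4, below 139 TPM for Fcgr3 and 85.3 TPM for Fcgr2b. Fcgr2b at 84.1 ± 24.9, Fcgrt at 49.4 ± 29.1, Fcrla at 18.5 ± 14.5, Fcgr1 at 14.4 ± 7.34 and Fcmr at 11.01 ± 6.33 followed, the last 3 within their spread.

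**Figure D1:**
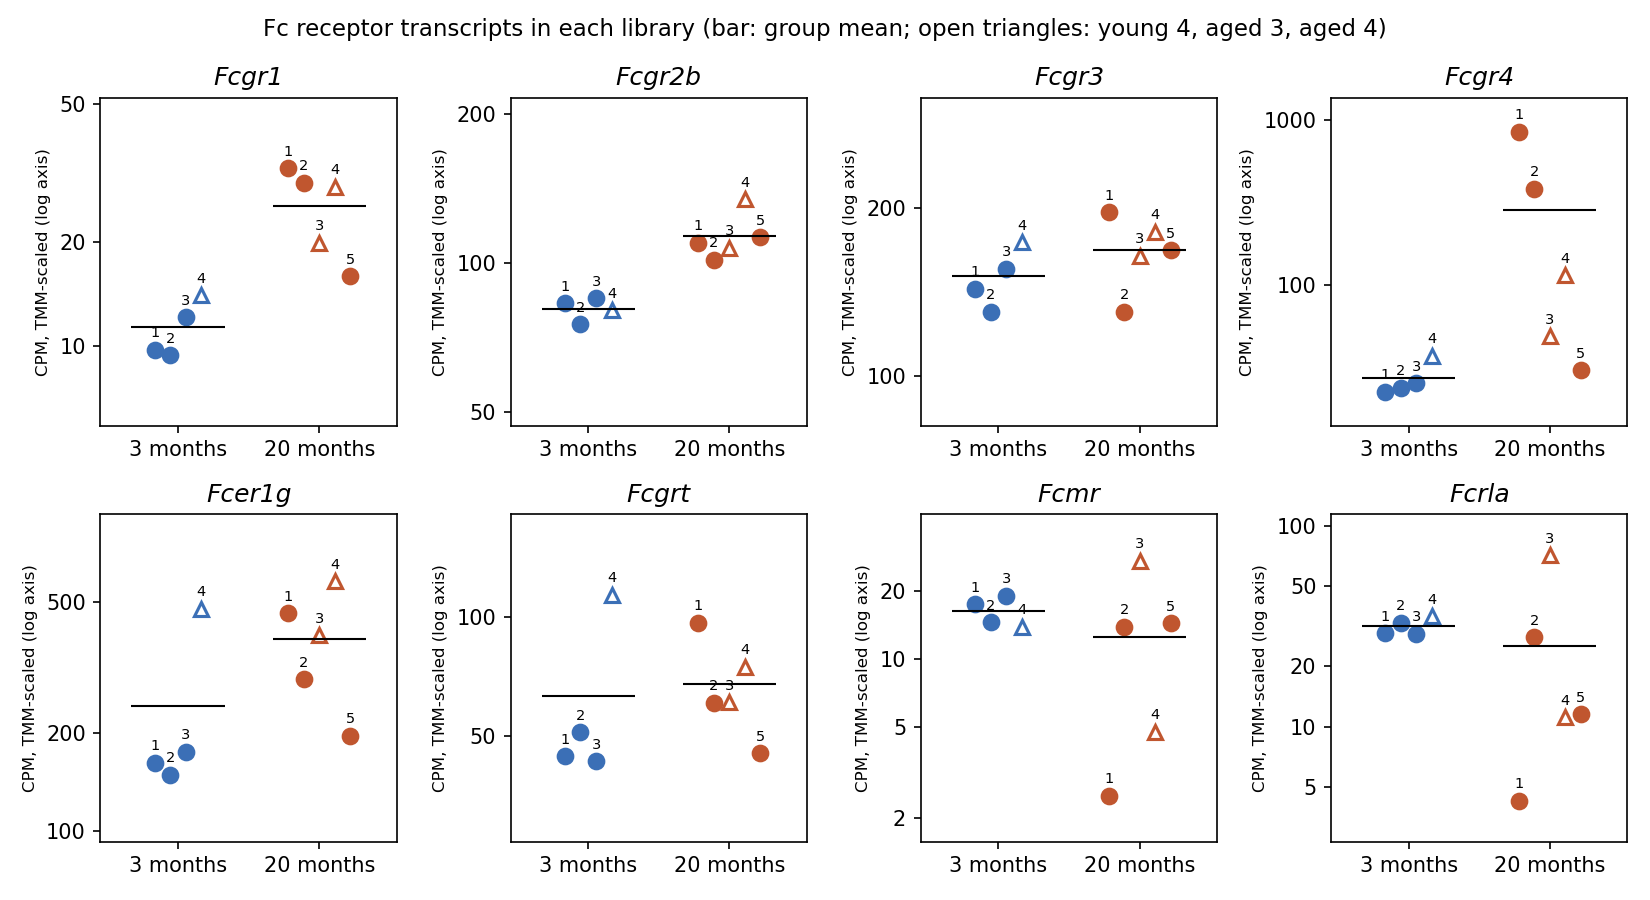
TMM-scaled CPM (log axes) of the 8 Fc receptor genes in each library by age, with library numbers beside the points, open triangles for young 4, aged 3 and aged 4, and bars for group means. All 5 aged points of Fcgr1 and Fcgr2b lie above all 4 young points, whereas the other 6 genes overlap.

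The activating receptors for IgG are taken first. Fcgr1, the high-affinity receptor, was present at 9.73, 9.38, 12.1 and 14.0 CPM in young 1 to 4 and at 32.6, 29.7, 19.9, 28.9 and 15.9 CPM in aged 1 to 5. Every aged library was above every young one, with aged 5 the lowest aged library and young 4 the highest young one. The log2 fold change was 1.17 (SE 0.258) in the fit with group as the only term, with an edgeR adjusted p of 0.255. With the library set as a further term the fold change was 1.16 (SE 0.24) and the edgeR adjusted p 0.0471, so that Fcgr1 rose in that fit. The call was lost when any of young 1 to 4 or aged 1, 2 or 4 was left out (edgeR adjusted p = 0.0688 to 0.178), and held without aged 3 (0.0191) or aged 5 (0.0199). An exact two-sided permutation of the log2 CPM of the 9 libraries gave p = 0.0159, where 0.00794 is the smallest p it allows. On the TPM scale the groups overlapped, because aged 3 held 5.30 TPM against 4.77 to 6.26 TPM in the young libraries. Within the 6 libraries the difference of mean log2 CPM was 1.26, and within the set of 3 it was 0.77.

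Fcgr3, the low-affinity activating receptor of myeloid and natural killer cells, was the steadiest of the 8 members. Its values were 143, 130, 156 and 174 CPM in young 1 to 4 and 197, 130, 164, 182 and 168 CPM in aged 1 to 5. The groups overlapped over most of their range. The log2 fold change was 0.16 (SE 0.182) with group alone and 0.14 (SE 0.136) with the set term, at edgeR adjusted p values of 1.00 and 0.660.

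Fcgr4, the receptor for IgG2a, IgG2b and IgG2c, had the widest range of the 8. It was at 22.6, 23.98, 25.4 and 37.3 CPM in young 1 to 4, and at 844, 383, 49.1, 115 and 30.6 CPM in aged 1 to 5. Aged 1 and aged 2 were far above the rest, and aged 5 was below young 4, so the groups overlapped through that pair of libraries alone. The group mean was 27.3 ± 6.74 CPM (SD, n = 4) in young and 284 ± 343 CPM (SD, n = 5) in aged marrow, and the median of the aged libraries was 115 CPM. Its log2 fold change was 3.38 (SE 0.939) with group alone and 3.14 (SE 0.926) with the set term, and neither passed, with edgeR adjusted p values of 0.320 and 0.108. Without aged 1, the library with the highest value, the fold change was 2.40 with group alone and 2.39 with the set term. In aged 5, the aged library with Y-linked transcripts, mean log2 CPM lay 0.35 above young 1 to 3, against 3.16 for the aged libraries of the 6 together. With Y-linked expression as a further term the log2 fold change of Fcgr4 was -0.32 (edgeR adjusted p = 1), and that of Fcgr1 was 0.49 (edgeR adjusted p = 1).

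Fcgr2b, the inhibitory receptor, had higher values in every aged library than in any young one, by a small margin. Its values were 83.0, 75.2, 85.0 and 80.3 CPM in young 1 to 4 and 110, 102, 107, 134 and 113 CPM in aged 1 to 5. The groups did not overlap, and neither did the age groups within each library set. The log2 fold change was 0.48 (SE 0.154) with group alone and 0.47 (SE 0.105) with the set term, at edgeR adjusted p values of 0.364 and 0.0580, which missed the threshold of 0.05. The exact two-sided permutation gave p = 0.00794, the smallest it allows. TPM values overlapped, with young 4 at 29.5 and aged 3 at 48.6 TPM against 58.6 to 71.8 TPM in the other young libraries. Fcgr3 also had its lowest TPM in young 4 and aged 3, at 78.6 and 85.7 TPM. The part of library scaling in this overlap was not tested.

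The make-up of the IgG receptors, taken as each gene's share of their summed TPM, differed most in aged 1 and aged 2. Fcgr4 made up 10.4, 11.9, 10.97 and 13.9% of the 4 IgG receptor transcripts in young 1 to 4. In aged 1 to 5 it made up 75.5, 64.8, 16.7, 28.1 and 11.2%. Fcgr4 was thus the leading IgG receptor transcript in aged 1 and aged 2, whereas Fcgr3 led in the other 7 libraries, at 59.5 to 61.8% in young marrow and 41.1 to 56.5% in aged 3, 4 and 5. The summed TPM of the activating receptors was 2.73, 2.80, 3.02 and 3.44 times that of Fcgr2b in young 1 to 4, and 13.6, 7.03, 2.45, 2.92 and 2.40 times in aged 1 to 5. The high ratios belonged to aged 1 and 2, and aged 3 and aged 5 were below all young libraries. With Fcgr4 left out, the ratio of Fcgr1 and Fcgr3 to Fcgr2b ranged from 2.34 to 2.82 in young libraries and from 1.82 to 2.58 in aged libraries. No test was made of these ratios, which share their parts.

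**Figure D2:**
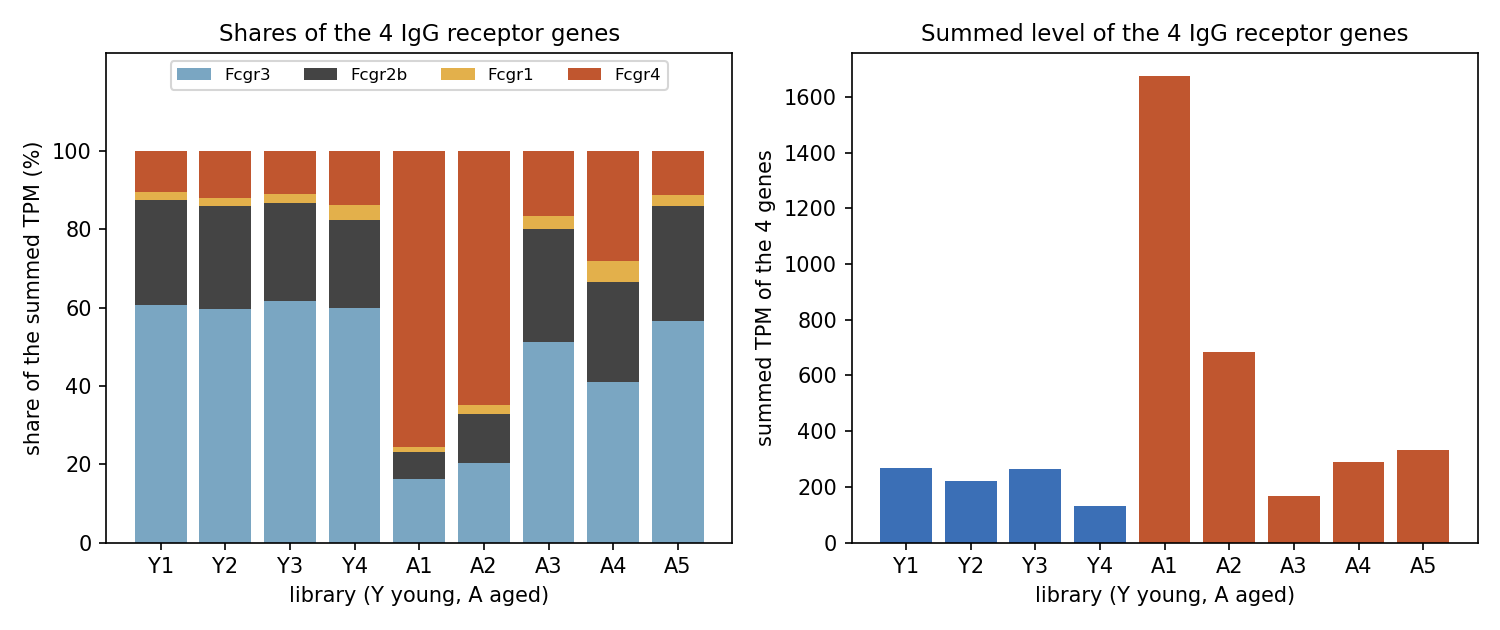
Share of the summed TPM of the 4 IgG receptor genes taken by each gene, as stacked percent bars for the 4 young and 5 aged libraries (left), and the summed TPM itself (right). Fcgr4 takes 10.4 to 13.9% in the young libraries and 11.2 to 75.5% in the aged ones, with aged 1 and aged 2 highest.

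Fcer1g, the signalling chain of the activating receptors, was at 162, 149, 175 and 477 CPM in young 1 to 4. In aged 1 to 5 it was at 463, 291, 397, 579 and 196 CPM. Young 4 exceeded 4 of the 5 aged libraries, so that the groups overlapped, while aged 1, 2 and 5 lay above young 1 to 3. The log2 fold change was 0.68 (SE 0.431) with group alone and 0.67 (SE 0.272) with the set term, and neither passed (edgeR adjusted p = 0.813 and 0.223). Within the 6 libraries the mean log2 CPM was 0.88 higher in aged marrow, and within the set of 3 it was 0.01 higher. Per length, Fcer1g TPM was 2.42 to 5.41 times the summed TPM of the activating receptors in young libraries. It was 1.07 and 1.36 times in aged 1 and 2 and 2.45 to 4.52 times in aged 3 to 5.

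Fcgrt, the neonatal receptor, did not keep a direction between the library sets in CPM. Its values were 44.4, 51.1, 43.1 and 114 CPM in young 1 to 4 and 96.9, 60.7, 61.0, 75.0 and 45.3 CPM in aged 1 to 5. In CPM, young 4 was the highest of all 9 libraries. In TPM, however, the young libraries ranged from 32.79 to 39.85 and the aged ones from 24.89 to 99.39, with an aged median of 38.6. For Fcgrt the log2 fold change was 0.10 (SE 0.336) with group alone and 0.13 (SE 0.278) with the set term (edgeR adjusted p = 1.00 and 0.869). Mean log2 CPM was 0.48 higher in aged marrow within the 6 libraries and was -0.75 (lower) within the set of 3. That difference of age effects had an unadjusted p of 0.0212 and an edgeR adjusted p of 0.925, and over the 8 members the adjusted p of this term ran from 0.925 to 0.971. The set of 3 holds 1 young library, which is assumed to vary like the others.

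The members of the B cell side, Fcmr and Fcrla, were spread widely among the aged libraries. Fcmr was at 17.5, 14.6, 19.0 and 13.9 CPM in young 1 to 4 and at 2.50, 13.9, 27.2, 4.78 and 14.4 CPM in aged 1 to 5. Fcrla was at 29.2, 32.9, 29.0 and 35.4 CPM in young 1 to 4 and at 4.27, 27.8, 71.3, 11.1 and 11.6 CPM in aged 1 to 5. Aged 3 was the highest library for both genes and aged 1 the lowest, and the age groups overlapped. The log2 fold changes with group alone were -0.38 (SE 0.559) for Fcmr and -0.33 (SE 0.655) for Fcrla, both with an edgeR adjusted p of 1.00. Without aged 3 these values were -0.87 and -1.21, and without aged 1 they were -0.11 and -0.06, with edgeR adjusted p values of 0.342 to 0.993. With the set term they were -0.46 (edgeR adjusted p = 0.747) and -0.70 (edgeR adjusted p = 0.624).

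The 7 B cell markers summed to 322 to 387 CPM in young libraries and to 89.9, 244, 552, 132 and 152 CPM in aged 1 to 5. The aged libraries with the highest and the lowest sums were the ones with the highest and lowest Fcmr and Fcrla. Of the 7 B cell markers 6 had fold changes below 0 and 0 were called in either fit, with a median log2 fold change of -0.68 with group alone. Every marker in this list had counts, and its part in the Fcmr and Fcrla values was not tested.

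The family was chosen with earlier results of these data known, so the shares of all genes set beside it describe and do not test it. Counted over the family, 0 of 8 members passed with group alone, where 0% of the 16576 genes tested passed. With the set term 1 of 8 passed, Fcgr1, against a background of 1.92% of genes in either direction and 0.615% higher in aged marrow. All 5 aged libraries lay above all 4 young ones for 2 of 8 members, Fcgr1 and Fcgr2b, against 1.67% of genes. Within the 6 libraries the aged libraries were above the young ones for 4 of 8 members (Fcgr1, Fcgr2b, Fcgr4 and Fcer1g), against 13.7% of genes, and below them for 2 of 8 (Fcmr and Fcrla), against 16.6%. A fit of those 6 libraries alone called 0 of 8 members and 0.012% of genes, with edgeR adjusted p values of 0.0694 for Fcgr1 and Fcgr2b and 0.0831 for Fcgr4. With the set term, 0 to 2 genes in all passed when a single young library, or aged 1, 2 or 4, was dropped, which bears on each call named here from that fit. An unadjusted p under 0.05 was found for 3 of 8 members with group alone (8.79% of genes) and for 4 of 8 with the set term (18.8% of genes).

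By another count model, DESeq2, 3 of 8 members passed with group alone, Fcgr1, Fcgr2b and Fcgr4, against 2.17% of genes. The same 3 passed DESeq2 with the set term, against 9.68% of genes. The authors' deposited table is, by its name, a DESeq2 comparison of the same libraries and no separate measurement. In it 2 of 8 members were marked significant, Fcgr1 at a log2 fold change of 1.18 and Fcgr4 at 3.41. The share was 0.839% of the 30495 genes with a count, a wider set than the 16576 genes tested here. Fcgr2b was given there at 0.49 with an adjusted p of 0.0714. The median log2 fold change of the 8 members was 0.32 with group alone, beside 0.03 for all genes tested.

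**Figure D3:**
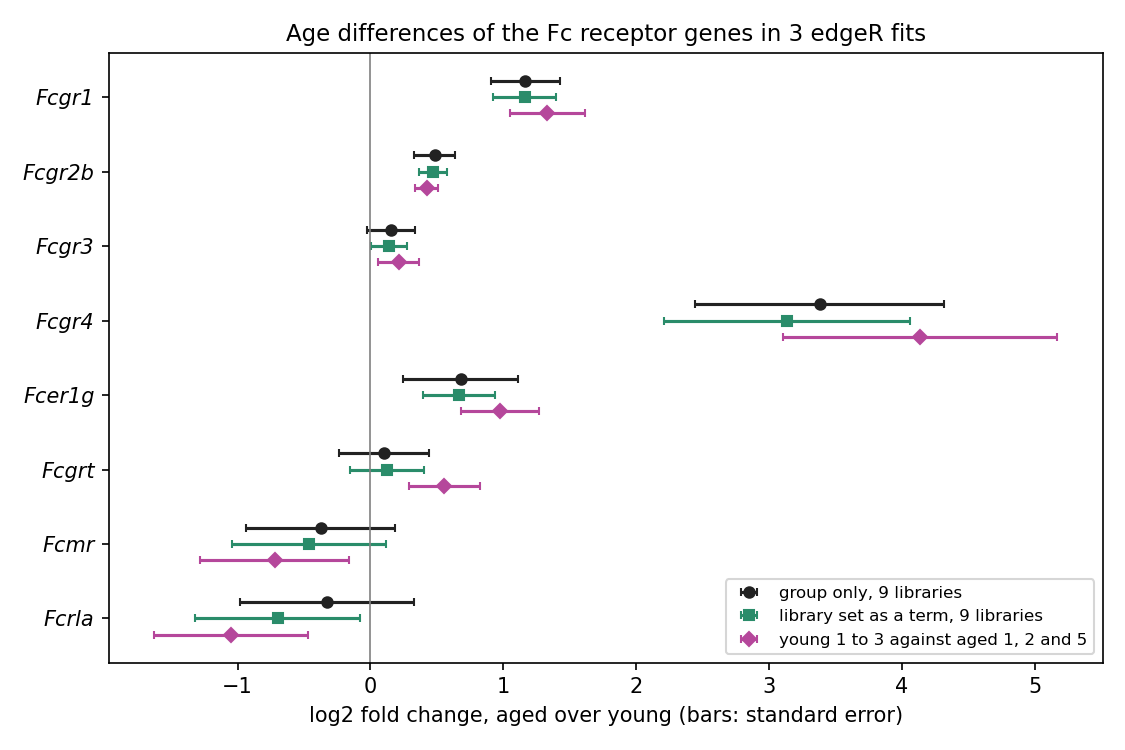
Log2 fold change (aged over young) of the 8 members with bars of 1 SE, with group as the only term and with the library set as a further term. The remaining series is the fit of the 6 libraries outside the set of 3 alone. Fcgr4 has the largest fold change and the widest bar, and Fcgr1 and Fcgr2b have narrow bars on the positive side.

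Genes that act with the receptors were described from lists. The Fc signalling list holds kinases, phosphatases and adaptors downstream of the receptors, and of its 24 genes 20 had fold changes above 0 and 4 below 0, while 0 passed in either fit. Its median log2 fold change was 0.26 with group alone, beside 0.03 for all genes. Of all 16576 genes tested, 8856 had fold changes above 0 with group alone, which is the background for each list below. Lyn, a Src family kinase that phosphorylates both motif types, ranged from 150 to 211 CPM in young libraries and from 200 to 406 CPM in aged ones, with a fold change of 0.62 with the set term (edgeR adjusted p = 0.0771). Ptpn6, the phosphatase SHP-1, ranged from 230 to 276 CPM in young libraries and from 296 to 539 CPM in aged ones, which did not overlap (0.62 with the set term, edgeR adjusted p = 0.105). Syk, Inpp5d (SHIP-1) and Btk had set-term fold changes of 0.24, 0.08 and 0.12, with edgeR adjusted p values of 0.505, 0.787 and 0.640.

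Receptors that borrow the gamma chain and other ITAM adaptors gave 8 of 9 fold changes above 0 with group alone and 0 passed, Tyrobp (DAP12) among them at 0.16 with the set term. Receptors with an ITIM gave 11 of 12 fold changes above 0 and 0 passed, with a median of 0.48. Siglece, an inhibitory sialic acid receptor, ranged from 42.8 to 72.7 CPM in young libraries and from 61.9 to 176 CPM in aged ones (0.95 with the set term, edgeR adjusted p = 0.141).

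B2m, the light chain of the neonatal receptor, was at 750, 840, 828 and 906 CPM in young 1 to 4 and at 1417, 1795, 2032, 1210 and 916 CPM in aged 1 to 5. The groups did not overlap, although young 4 and aged 5 were close. For B2m the log2 fold change was 0.83 with group alone and 0.79 (SE 0.222) with the set term, at edgeR adjusted p values of 0.388 and 0.0946. B2m also pairs with class I molecules, and all 5 genes of that list had fold changes above 0, with 0 passing.

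Of 11 other Fc receptor genes, 6 could be tested. With the set term 1 passed, against 1.92% of all genes: Fcrl5, an Fc receptor-like protein of B cells. Fcrl5 was at 0.532, 0.595, 0.378 and 0.0679 CPM in young 1 to 4, which rests on 14, 13, 9 and 1 counts. In aged 1 to 5 it was at 155, 75.8, 2.51, 3.17 and 1.39 CPM, and all aged libraries were above all young ones. With Fcrl5 the log2 fold change reached 7.18 (SE 1.31) with the set term (edgeR adjusted p = 0.0405) and 6.84 with group alone (edgeR adjusted p = 0.276). Fcer2a (CD23), the low-affinity IgE receptor of B cells, ranged from 6.52 to 13.2 CPM in young libraries and from 0.604 to 10.4 CPM in aged ones (edgeR adjusted p = 0.429 with the set term).

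The ligands were read from the constant-region genes, which resemble each other and whose counts are uncertain to that extent. Of 12 genes 11 were tested, 10 had fold changes above 0 and 0 passed in either fit. Ighg2b, a ligand subclass of Fcgr4, was at 96.4 to 195 CPM in young marrow and at 184, 5674, 5655, 200 and 8112 CPM in aged 1 to 5 (edgeR adjusted p = 0.0717 with the set term). Aged 5 had the highest Ighg2b and the lowest aged Fcgr4, and aged 1 had the highest Fcgr4 and the lowest aged Ighg2b. Ighg2c was at 59.3 to 129 CPM in young marrow and at 151, 2609, 475, 286 and 155 CPM in aged 1 to 5 (edgeR adjusted p = 0.119 with the set term). Ighg1 ranged from 8.42 to 31.4 CPM in young libraries and from 42.8 to 862 CPM in aged ones (edgeR adjusted p = 0.0586 with the set term). Plasma cell markers summed to between 159 and 179 CPM in young libraries and between 263 and 564 CPM in aged ones. Of the 6, 2 passed with the set term, Xbp1 and Prdm1, against 1.92% of all genes.

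Markers of the cells that carry the activating receptors were summed in each library. The 11 monocyte and macrophage markers summed to between 4432 and 5551 CPM in young libraries and between 4871 and 7998 CPM in aged ones. Lyz2 (lysozyme), at 2945 to 6406 CPM, made up most of that sum, and without it the other 10 markers summed to between 1023 and 1139 CPM in young and between 1592 and 1925 CPM in aged libraries, with no overlap. Of all 11 markers, 9 had fold changes above 0 with group alone, Lyz2 among them at 0.04, and Mrc1 and Cd163 were below 0. With the set term 1 of the 11 passed, against 1.92% of all genes. It was Ly6c2, a marker of classical monocytes (log2 fold change 0.89, SE 0.163, edgeR adjusted p = 0.0405). Cd14 ranged from 4.82 to 5.38 CPM in young libraries and from 6.44 to 33.6 CPM in aged ones, which did not overlap. Csf1r (the CSF-1 receptor), Adgre1 (F4/80) and Cd68, macrophage genes, were highest in aged 1 and aged 2, as Fcgr4 was, at 345 and 282, 181 and 113, and 186 and 127 CPM, while their young libraries reached at most 162, 62.2 and 95.6 CPM. The groups overlapped for each of the 3, and their lowest aged values, at 78.42, 31.11 and 49.23 CPM, lay below their lowest young values. Those young values were 83.25, 36.6 and 79.5 CPM. Adgre1 and Cd68 were named after their values were seen, and none of the 3 passed in either fit. Cd163 and Mrc1, markers of resident macrophages, were lowest in aged 1, at 8.33 and 47.4 CPM. The 12 neutrophil markers summed to between 24590 and 56080 CPM in young libraries and between 17830 and 77680 CPM in aged ones. All 7 erythroid markers had fold changes below 0 in both fits. Their median log2 fold change was -1.12 with group alone and -1.36 with the set term. Of these markers 1 passed with the set term, Tfrc, against 1.92% of all genes. Of the 6 dendritic cell markers 3 had fold changes above 0 and 3 below 0, with a median log2 fold change of -0.06 with group alone, and 0 passed in either fit. Their sum was 55.1 to 85.6 CPM in young libraries and 275, 202, 70.1, 54.4 and 77.8 CPM in aged 1 to 5, of which Itgax (CD11c) alone made up 239 CPM in aged 1 and 154 CPM in aged 2. Without Itgax the other 5 summed to 44.4 to 68.1 CPM in young libraries and to 35.6, 47.5, 53.4, 42.2 and 57.3 CPM in aged 1 to 5, so that aged 1 was the lowest library. Itgax itself, also found on macrophages and some B cells, was at 10.7 to 17.5 CPM in young libraries and 16.7, 12.2 and 20.5 CPM in aged 3 to 5. Aged 1 and 2 were thus the high libraries for Fcgr4, Fcrl5 and Itgax. The other dendritic cell markers were split in direction with group alone. Flt3, Siglech and Zbtb46 had log2 fold changes of -0.21, -0.39 and -0.61, and Xcr1 and Clec9a had 1.32 and 0.10. No marker in these lists was at 0 in all libraries, and the part of these cells in the receptor levels was not tested.

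**Figure D4:**
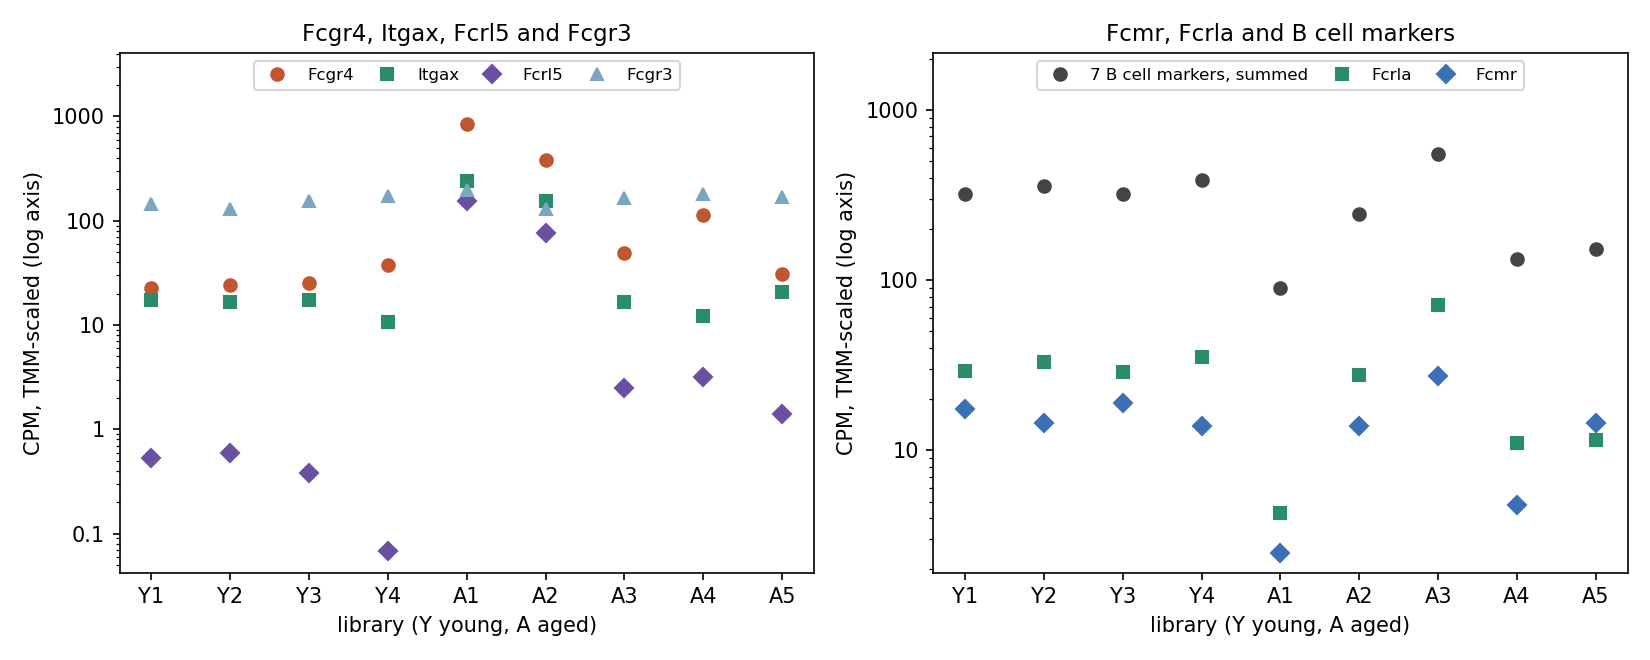
Levels (TMM-scaled CPM, log axes) in the 4 young (Y) and 5 aged (A) libraries of Fcgr4, Itgax, Fcrl5 and Fcgr3, and of Fcmr, Fcrla and the sum of 7 B cell markers. Fcgr4, Itgax and Fcrl5 are highest in aged 1 and aged 2, whereas Fcgr3 stays between 130 and 197 CPM.

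Profiles over the 9 libraries were compared by the root mean square distance of centred log2 CPM, where a smaller value is a closer profile. The distance is not scaled, so genes that vary little lie close to each other. An own spread is the same measure of a gene against its mean. Among the members, Fcgr2b and Fcgr3 were the closest pair at 0.22, beside own spreads of 0.263 and 0.195. That distance was larger than the spread of Fcgr3 and shows no shared profile. Fcmr and Fcrla stood at 0.49, and Fcgr4 and Fcrla were the farthest apart at 2.62. Among 14830 genes whose mean reached 1 CPM, the nearest to Fcgr1 were F11r and Bcl3, both at 0.17, and Il21r at 0.23, beside an own spread of 0.65. The nearest to Fcgr4 were Srcin1 at 0.32, Ifit1bl1 at 0.35 and Bcl2a1d at 0.44, beside an own spread of 1.80. Genes nearest to Fcgr2b were Slc39a6 at 0.08, Tes at 0.09 and Map2k1 at 0.10. Gpi1, Nqo2 and Agtrap lay nearest to Fcgr3, at 0.06, 0.09 and 0.09. Fcer1g had Klf2, Nr2f6 and Rras as its nearest genes at 0.15, 0.18 and 0.18, and Fcgrt had Adm, Blvra and Serpinb6a at 0.15, 0.19 and 0.20. Fcmr stood nearest to Ms4a1 (CD20, a B cell surface protein) at 0.22, Ighd (the constant region of IgD) at 0.28 and H2-Ob at 0.31. Fcrla stood nearest to Gm28857 at 0.26, Cd79a (a chain of the B cell receptor complex) at 0.28 and Slamf6 at 0.34. These distances describe the 9 libraries, which differ in their hemoglobin share and marker sums as given above, and carry no test.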

How the data were processed

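Bulk RNA-seq libraries of bone marrow from 4 young and 5 aged mice were read from 1 deposited table. The members and gene lists were chosen with earlier results of these data known. The submitters' processing notes name Bowtie 0.12.2 and mm8 without a role, and the quantifier is not given in the sources used here. The authors deposited estimated counts per gene and library, which are not scaled and were rounded here, and TPM values. The log2 fold changes, the fold (ratio) column and the p-values in the authors' deposited table are their own comparison, per the file headers. The gene lengths in the deposited table equalled a GENCODE M21 transcript length for 97.2% of the 52073 gene IDs found there, and for all 8 members.

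Counts were fitted over all genes in edgeR 4.0.16 (R 4.3.3) by its quasi-likelihood F test, using TMM factors, filterByExpr (minimum count 10, total 15) and Benjamini-Hochberg adjustment over 16576 genes at a threshold of 0.05, two-sided. Fits used group alone, and group with the library set as a term, a set taken in earlier work from ribosomal protein shares. Log2 CPM used a prior count of 2, and the SE of a fold change was taken from the F statistic. Single members were compared by exact permutation over 126 arrangements. Alternatives were DESeq2 1.42.0, limma-voom of limma 3.58.1, other scalings and filters, each library left out, the replicate number as a block and a Y-linked term. The fits were tested on simulated data. Named genes were all members, fixed genes of each list with up to 4 more of smallest p, and the 3 nearest profiles of each member. Promoters came from RefSeq (GRCm38.p6) and coding stretches from GENCODE M21. Proteins, reads and isoforms were not analysed here. Labels call the libraries biological replicates, and depth enters the fits through library sizes and scaling factors.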

Additional observations from a re-analysis of the deposited data

Results flagged for a closer look

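Fcer1g in young 4 lay apart from the other young libraries by Dixon's test, at 8.90 log2 CPM. The level was 477 CPM, against 149 to 175 CPM in young 1 to 3. On the TPM scale, which carries no TMM factors, the gap was smaller, with 549 TPM in young 4 and 402 to 493 TPM in young 1 to 3. Young 4 is 1 of the 3 libraries with a high share of ribosomal protein transcripts, and the part of that share in the value was not tested. In all, 16 groups of libraries were examined this way, and chance marks about 1 group in 20.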

How the results depend on the processing

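Calls among the 8 members depended on the model. With group alone 0 members passed edgeR, against 3 by DESeq2 and 1 once the library set was a term (0 and 319 genes passed over all genes without and with the set, against 360 by DESeq2 without it). With the set term 1 passed, against 3 by DESeq2 (1604 genes), 2 with no low-count filter (997 genes), 0 by limma-voom (378 genes), 0 with upper quartile factors (0 genes) and 0 with a Y-linked term (5 genes). Scaling by totals called 118 genes. Leaving out 1 library each gave 0 to 3 members: 3 without aged 3 (1633 genes), 2 without aged 5 (712 genes) and 0 without any other single library (0 to 2 genes). The adjusted p of Fcgr1 in edgeR with the set term ranged from 0.0191 without aged 3 to 0.178 without young 2. With group alone 6 genes passed without aged 5 and 0 passed in any other such fit.

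Fcgr1 and Fcgr2b kept their direction in every alternative run, at log2 fold changes of 1.06 to 1.33 and 0.42 to 0.52 with group alone and 0.49 to 1.495 and 0.42 to 0.59 with the set term. Fcgr4 ranged from 2.40 to 4.14 with group alone and reached -0.32 with the Y-linked term, where Fcgrt was -0.28. Leaving out single libraries moved Fcgrt from -0.061 to 0.552 with group alone and from -0.148 to 0.549 with the set term. With group alone, Fcmr moved from -0.87 to -0.11 and Fcrla from -1.21 to -0.06, the ends being without aged 3 and without aged 1. The causes were not tested.

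The replicate block with the set term, in replicates 1 to 4, called 3 members (1489 genes), and the same libraries without a replicate block, added after the data were seen, called 2 (712 genes). The numbers only name samples: correlations of deviations between same-numbered libraries were 0.46, 0.55, -0.39 and 0.74, and young 1 and young 3 correlated best with aged 5. With group alone the block called 13 genes. Counts of 1 to 14 a library, as for Fcrl5 in young marrow, limit what fold changes mean.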
